A study of Rattus norvegicus with 56 samples.

Results

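A set of 10 genes of glycolysis and of the response to low oxygen were followed in rat kidney tubules after obstruction of the ureter: Ldha, Ldhb, Hk1, Hk2, Pfkl, Pgk1, Aldoa, Vegfa, Bnip3 and Egln3. They were chosen by symbol, all 10 were found among the 32883 genes of the deposited tables, and each matched a single gene identifier. The animals were male Sprague-Dawley rats. In the obstructed arm (unilateral ureteral obstruction, UUO) the left ureter was tied with silk close to the renal pelvis, and in the sham arm the operation was the same but the ureter was not tied, so anaesthesia, flank incision and handling of the ureter were shared by both arms. Pieces of cortical collecting duct (CCD) and of cortical thick ascending limb (cTAL) were microdissected from kidneys taken at 30 min or 3 h, and RNA of each dissected sample was sequenced. Replicates were numbered 1 to 4 in each segment, arm and time; a CCD number has 2 libraries and a cTAL number has 1, which makes 48 libraries, 24 per time. The labels do not name the animals, so p-values measure the spread between the numbered replicates. Same-numbered CCD and cTAL samples of an arm and time were taken as the same animal. Another 8 whole-kidney samples of the series were not analysed here.

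Glycolysis turns glucose into pyruvate. Hexokinases (Hk1, Hk2) trap glucose by phosphorylation, phosphofructokinase (Pfkl, the liver-type subunit) commits it to the pathway, aldolase A (Aldoa) splits the sugar, phosphoglycerate kinase (Pgk1) makes ATP, and lactate dehydrogenase exchanges pyruvate and lactate. Lactate dehydrogenase is a tetramer of A subunits (Ldha) and B subunits (Ldhb), and the A form is classically linked to lactate production and the B form to lactate use in oxidative tissues. When oxygen is low, hypoxia-inducible factors (HIF) escape hydroxylation and raise many genes of glycolysis together with Vegfa (the main vascular growth factor), Bnip3 (a mitochondrial outer membrane protein that marks mitochondria for removal) and Egln3 (the oxygen-sensing prolyl hydroxylase PHD3, which acts back on HIF). In the kidney the thick ascending limb has a high oxidative demand for salt transport, whereas collecting ducts are regarded as more glycolytic.

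HIF binds DNA at a short core, written here as ACGTG or GCGTG. Both words were searched on both strands in the 250 bases before each annotated gene start (RefSeq, build GRCr8). Such windows were listed for 9 of the 10 members, 13 in all, and Pgk1 had none. At least 1 of the words was found in 6 of the 13 windows, belonging to 6 members, and in 36.7% of the 33469 windows of all genes. The windows of Bnip3 and Ldha are shown because these members moved at 3 h, and that of Egln3 because it differed between segments and held no match. Capitals mark the words found. The Bnip3 window is chr1:203154963-203155212 on the minus strand, with 4 overlapping or separate matches between 108 and 90 bases before the start. The Ldha window is chr1:106507842-106508091 on the plus strand, with 4 matches, of which the closest begins 14 bases before the start. The Egln3 window is chr6:77411016-77411265 on the minus strand. A match describes the sequence, and the palindrome CACGTG counts once on each strand.
Bnip3: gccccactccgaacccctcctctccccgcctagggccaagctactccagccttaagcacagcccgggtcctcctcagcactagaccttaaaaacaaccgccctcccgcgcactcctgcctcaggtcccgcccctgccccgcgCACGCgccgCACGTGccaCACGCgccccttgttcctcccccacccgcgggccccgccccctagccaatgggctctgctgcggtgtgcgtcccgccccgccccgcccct
Ldha: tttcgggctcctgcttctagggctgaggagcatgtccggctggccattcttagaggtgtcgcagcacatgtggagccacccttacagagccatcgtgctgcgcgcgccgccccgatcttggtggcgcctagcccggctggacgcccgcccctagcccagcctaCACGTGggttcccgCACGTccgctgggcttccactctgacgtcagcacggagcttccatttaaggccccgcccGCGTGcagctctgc
Egln3: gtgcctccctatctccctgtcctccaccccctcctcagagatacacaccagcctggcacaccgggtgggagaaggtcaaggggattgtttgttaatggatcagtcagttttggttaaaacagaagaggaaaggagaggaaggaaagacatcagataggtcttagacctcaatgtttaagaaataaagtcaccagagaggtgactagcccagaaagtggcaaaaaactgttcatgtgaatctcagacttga

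Values are TPM (a length-adjusted share of each library's transcripts), which scale each library to the same total and adjust for gene length but keep no record of depth. Depth is therefore unknown, and between 8744 and 11916 genes per library at 30 min and between 9585 and 10750 at 3 h stood at 1 TPM or more. Mitochondrial transcripts took 13.8% to 28.5% of the total at 30 min and 4.83% to 12.9% at 3 h. The segment labels were met by their markers. The summed level of 8 principal cell markers ranged over 5503 to 18653 TPM among CCD replicates and 52.4 to 618 TPM among cTAL replicates, and that of 8 thick ascending limb markers over 32435 to 75973 TPM in cTAL and 133 to 10299 TPM in CCD. Some libraries stood apart. The second CCD library of UUO number 2 at 30 min had the 8744 genes named above. At 3 h the CCD libraries of sham 1 (first), sham 3 (first) and UUO 4 (second) held over 5000 TPM of Umod, the thick ascending limb's most abundant product, and 5 CCD libraries of the UUO arm held over 1000 TPM summed over proximal tubule markers. The cTAL library of sham 1 at 3 h held 361 TPM of the principal cell gene Aqp2. At 30 min the CCD libraries of sham 1 held 4167 and 6274 TPM summed over distal convoluted and connecting tubule markers. The other sham CCD libraries of that time held 165 to 1188 TPM of them. Differences are log2 changes on the log2(TPM + 1) scale, which understates changes of genes near 1 TPM. "Called" means an adjusted p under 0.05 in limma over all genes tested (those reaching 1 TPM in 4 or more of the 8 replicates compared). The 2 times come from separately normalized tables, so levels are compared only within a time. RefSeq lists processed copies of Ldha, Pgk1, Aldoa and Bnip3, and reads shared with near-identical copies could not be told apart in these values.

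**Figure D1:**
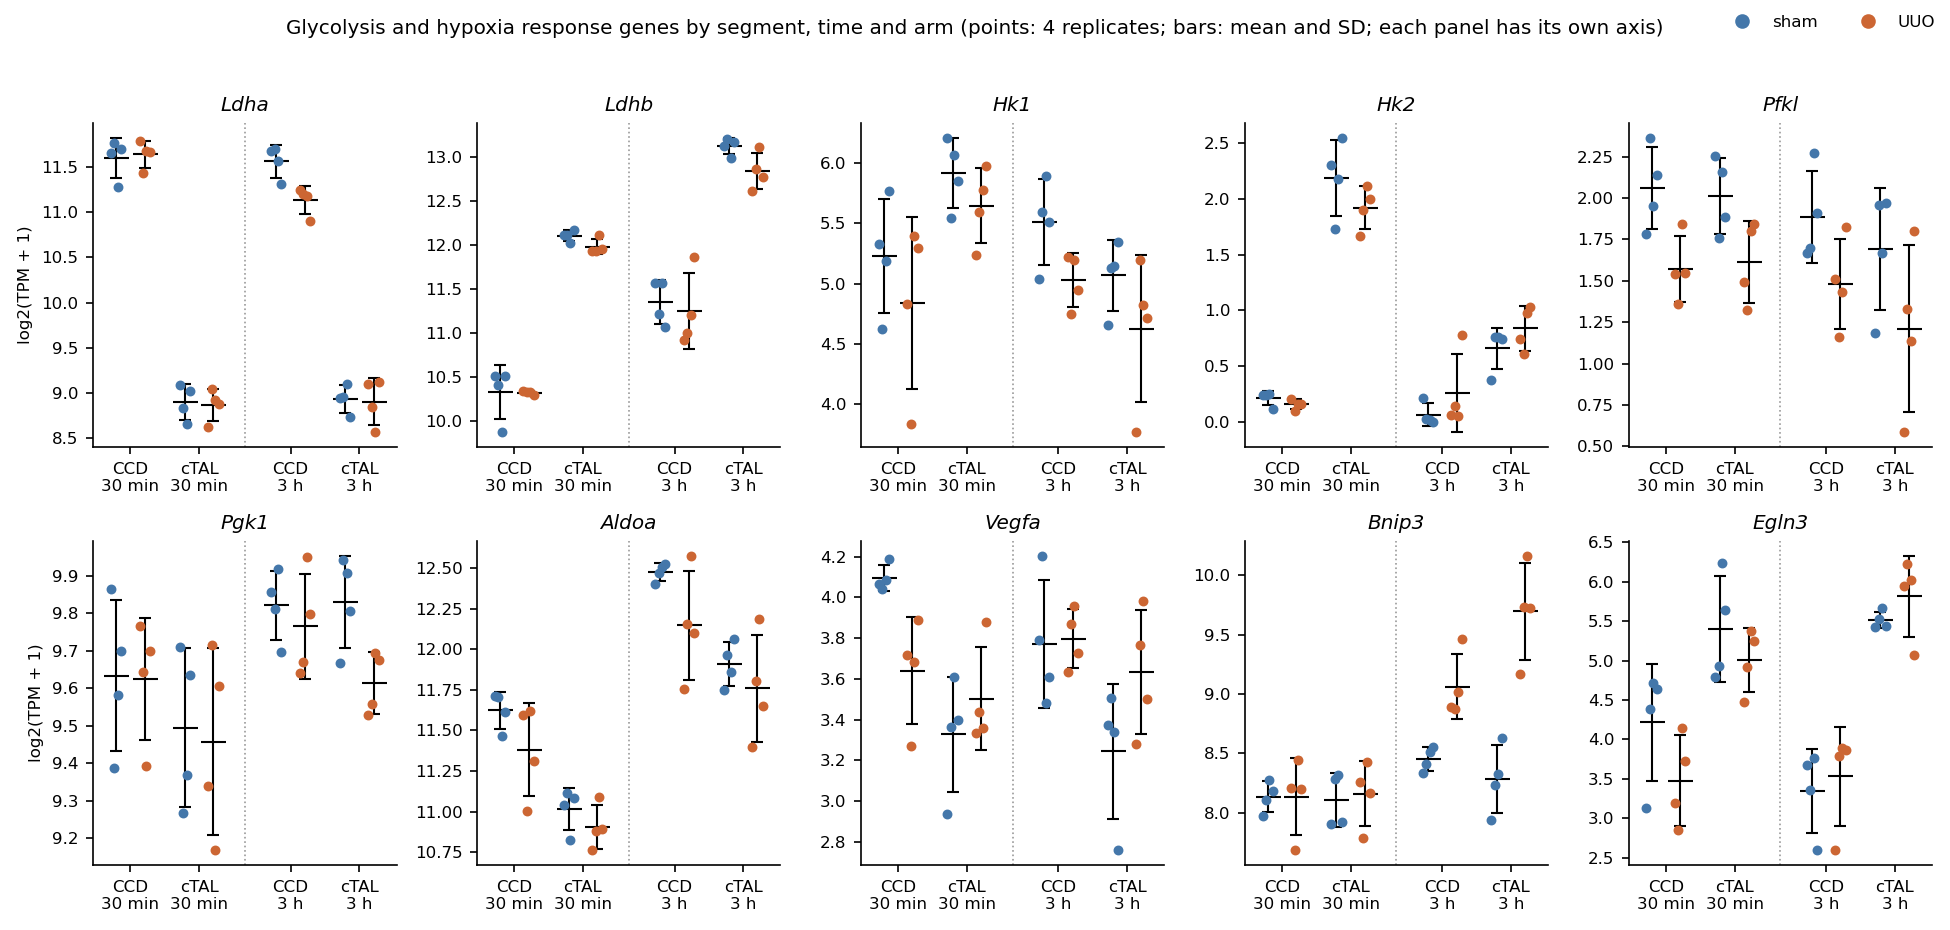
Level of each member, as log2(TPM + 1), in the 8 groups of samples. Each point is a numbered replicate, black bars give mean and SD of 4 replicates, blue is sham and orange UUO, and the dotted line parts the separately normalized times. Ldha lies higher in CCD and Ldhb and Egln3 lie higher in cTAL in every arm and time. The Bnip3 points of UUO lie above sham in both segments at 3 h.

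In sham kidneys the lactate dehydrogenase subunits were split between the segments. Ldha, the A subunit, stood at 3229, 3487, 2475 and 3323 TPM in CCD at 30 min. In cTAL it stood at 545, 456, 403 and 519.8 TPM. The CCD level was 6.47-fold higher at 30 min and 6.16-fold higher at 3 h, which is a description only, because this difference was part of how the genes were chosen. Ldhb, the B subunit, ran the other way, with 1464, 1357, 937 and 1459 TPM in CCD. In cTAL it held 4414, 4431, 4148 and 4618 TPM. No CCD replicate of Ldhb reached the lowest cTAL replicate at either time. The sham difference of Ldhb, CCD minus cTAL, was -1.78 (SE 0.10, adjusted p = 1.91e-05) at 30 min and -1.79 (SE 0.12, adjusted p = 0.000172) at 3 h. It lasted in obstructed kidneys, where it was -1.66 (SE 0.07, adjusted p = 3.69e-05) at 30 min and -1.63 (SE 0.14, adjusted p = 0.00014) at 3 h. Ldha was also higher in CCD of obstructed kidneys, by 2.76 (SE 0.14) at 30 min and 2.21 (SE 0.14) at 3 h. The rule of choice named sham levels, but the genes were chosen with earlier results of these data known. These values are therefore a description too.

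The balance of the subunits followed from this. Since TPM adjust for length, the subunits can be compared within a sample. The Ldha to Ldhb ratio of TPM was 2.21, 2.57, 2.64 and 2.28 in the 4 CCD sham replicates at 30 min. In cTAL it was 0.123, 0.103, 0.0971 and 0.113. At 3 h the CCD sham ratios were 1.08, 1.40, 1.00 and 1.18 and the cTAL sham ratios 0.0554, 0.0526, 0.0674 and 0.0463. A subunits thus outnumbered B subunits in every CCD sham replicate at the transcript level, although at 3 h by little, and were a small part of the total in every cTAL replicate.

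Hk2, which reached 1 TPM in no CCD replicate at 30 min and so could be tested only through its cTAL values, is left out of the counts that follow. Of the 8 members other than Ldha and Hk2, 2 were higher and 3 lower in CCD in sham kidneys at 30 min, where 41.7% of all genes tested were called higher and 13.2% lower. The median difference of all genes was 0.30, so CCD carried a general shift upward on this scale, and median-of-ratios rescaling of the libraries turned the split of 4859 higher and 1541 lower genes into 3107 and 2741. At 3 h 2 of the 8 others tested were higher and 2 lower, against 27.7% and 10.4% of all genes (2916 higher and 1099 lower, or 1576 and 1759 after rescaling; median difference 0.30). In obstructed kidneys at 30 min, none of the same 8 members was higher in CCD and 2 were lower (Ldhb and Egln3). Of all genes, 14.3% were higher and 11% lower (1598 and 1232, or 1362 and 1617 after rescaling). At 3 h 1 of the 8 was higher and 3 were lower. The shares of all genes were 19.8% and 6.81% (2062 and 710, or 1043 and 1212 after rescaling).

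Of the hexokinases, Hk1 was lower in CCD than in cTAL of sham kidneys at 30 min, and Hk2 lay near 0 in CCD. Hk1, the housekeeping form bound to mitochondria, stood at 39.3, 23.6, 35.5 and 53.4 TPM in CCD of sham kidneys. Its cTAL values were 72.9, 45.7, 66.2 and 56.8 TPM, so the ranges overlapped although the difference within numbers was -0.81 (SE 0.17, adjusted p = 0.00565). At 3 h the sign turned, with CCD higher by 0.44 (SE 0.14, adjusted p = 0.0467). That call was lost under 11 of 13 alternatives, among them rescaling (0.13, adjusted p = 0.54), and the difference between the times was not tested. In obstructed kidneys the difference of Hk1 was -0.98 (adjusted p = 0.097) at 30 min and 0.39 (adjusted p = 0.336) at 3 h, neither called. With the second CCD library of each number alone, the 30 min sham difference of Hk1 was -0.28 (adjusted p = 0.235). Hk2, the inducible form, was close to the bottom of the scale. In sham CCD at 30 min it was listed at 0.18, 0.18, 0.19 and 0.085 TPM. The cTAL of the same kidneys held 3.94, 2.31, 3.52 and 4.85 TPM, above every CCD value. In obstructed kidneys at 30 min it was listed at 0.155, 0.07, 0.115 and 0.12 TPM in CCD. The obstructed cTAL held 2.17, 2.74, 3.35 and 2.99 TPM. These levels are a description, since 1 TPM was reached only in cTAL, and no test is read from them. At 3 h Hk2 did not reach 1 TPM in 4 replicates and was not tested. Its highest value at 3 h was 1.04 TPM in cTAL and 0.715 TPM in CCD.

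The enzymes of the middle of the pathway differed less between the segments. Pfkl lay low in both. Sham CCD at 30 min held 2.44, 4.14, 2.87 and 3.41 TPM, and sham cTAL 3.77, 2.39, 3.46 and 2.7 TPM. Its segment difference was not called in any arm or time, with a sham value of 0.03 (95% interval -0.47 to 0.53) at 30 min that was -0.22 after rescaling. Pgk1 was abundant and close to even, with 799 ± 111 TPM in sham CCD at 30 min against 726 ± 106 TPM in sham cTAL (mean ± SD, n = 4). Its sham difference was 0.14 (95% interval -0.02 to 0.29) at 30 min and -0.01 (95% interval -0.20 to 0.18) at 3 h. Rescaling turned the first to -0.20 (adjusted p = 0.0978) and moved the second to -0.33 (adjusted p = 0.0165), a call for Pgk1 lower in CCD. Aldoa was the most abundant of these enzymes, at 3357, 3339, 2830.4 and 3131 TPM in CCD. In cTAL it stood at 2104, 2217, 1812 and 2173 TPM, and the ranges did not overlap. Aldoa was higher in CCD of sham kidneys by 0.61 (SE 0.06, adjusted p = 0.000258) at 30 min and 0.56 (SE 0.06, adjusted p = 0.00118) at 3 h. Rescaling left 0.27 at 30 min (adjusted p = 0.0612). In obstructed kidneys the Aldoa difference was 0.44 (adjusted p = 0.0558) at 30 min and 0.38 (adjusted p = 0.01) at 3 h, and without the second library of UUO number 2, the one with the fewest genes, the value at 30 min was 0.60 (adjusted p = 0.00324). The call at 3 h was lost after rescaling (0.05, adjusted p = 0.872), without number 1 (0.39, adjusted p = 0.0536) and with the second CCD libraries alone (0.26, adjusted p = 0.141). It was also lost without pairing by number (0.38, adjusted p = 0.185) and with the variance trend on the mean difference (0.38, adjusted p = 0.123).

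Among the hypoxia response genes, Egln3 showed the widest segment difference. In sham kidneys at 3 h it stood at 11.8, 9.24, 12.6 and 5.06 TPM in CCD. In cTAL it stood at 42.2, 45, 49.7 and 42.5 TPM, far above each CCD value. The difference was -1.18 (SE 0.20, adjusted p = 0.0021) at 30 min and -2.26 (SE 0.20, adjusted p = 0.000425) at 3 h in sham kidneys. In obstructed kidneys it was -1.61 (SE 0.23, adjusted p = 0.00377) and -2.33 (SE 0.30, adjusted p = 0.000926). Sham CCD number 1 at 30 min, rich in distal convoluted and connecting tubule markers, held 7.74 TPM of Egln3. Numbers 2, 3 and 4 held 19.96, 25.2 and 23.8 TPM. The part of those markers in the 30 min values of Egln3 was not tested. At 3 h, within 3 of the numbers, the CCD library rich in Umod held more Egln3. The first libraries of sham 1 and sham 3 and the second library of UUO 4, rich in Umod, held 17.3, 19.4 and 20.2 TPM of Egln3. The other libraries of the same numbers held 6.25, 5.78 and 6.91 TPM. The first library of UUO 3, in contrast, held 17.2 TPM of Egln3 with only 56.7 TPM of Umod. Without the Umod-rich libraries the sham difference at 3 h was -2.62 (adjusted p = 0.000208), wider than the -2.26 with them. The part of thick ascending limb transcripts in the CCD levels of Egln3 was not tested.

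Vegfa was higher in CCD of sham kidneys at 30 min. Sham CCD held 15.7, 15.5, 15.9 and 17.2 TPM. Sham cTAL held 6.67, 9.31, 11.2 and 9.54 TPM, below every CCD value, a difference of 0.74 (SE 0.15, adjusted p = 0.00523). Rescaling left 0.44 (adjusted p = 0.0741) and quantile normalization 0.33 (adjusted p = 0.151). At 3 h the difference was 0.51 (SE 0.20, adjusted p = 0.0829), with overlapping ranges. In obstructed kidneys Vegfa was not called between the segments, at 0.12 (adjusted p = 0.687) at 30 min and 0.15 (adjusted p = 0.64) at 3 h. Bnip3 stood nearly level across the segments in sham kidneys. It held 249.8, 274, 309 and 290.1 TPM in CCD and 238, 311, 318 and 241 TPM in cTAL at 30 min, a difference of 0.03 (95% interval -0.19 to 0.25) that turned to -0.31 (adjusted p = 0.0742) after rescaling and -0.30 (adjusted p = 0.048) after quantile normalization. At 3 h the sham difference was 0.17 (95% interval -0.06 to 0.40). In obstructed kidneys at 3 h Bnip3 was lower in CCD than in cTAL (difference -0.64, SE 0.16, adjusted p = 0.0187). That call was lost under 5 of 13 alternatives, among them without number 2 (-0.57, adjusted p = 0.0773) and without number 3 (-0.47, adjusted p = 0.0732), at values from -0.98 to -0.47.

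**Figure D2:**
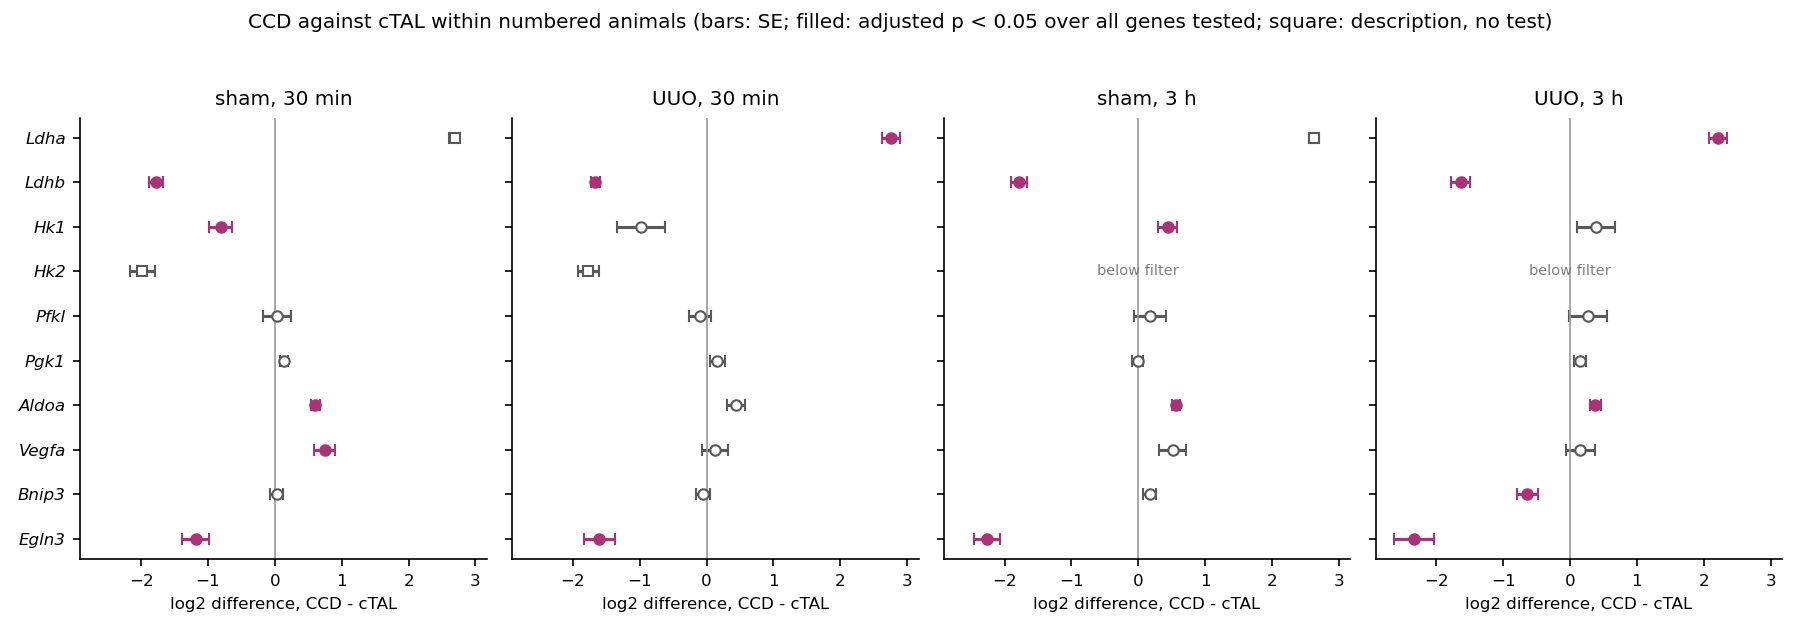
Difference of each member between CCD and cTAL of the same number, in log2 units (CCD minus cTAL), in sham and obstructed kidneys at both times. Bars give the SE over 4 pairs, filled circles have an adjusted p under 0.05 over all genes tested, and squares are Ldha in sham kidneys and Hk2, whose values are a description. The circles of Ldha in obstructed kidneys are read as a description too. Ldha lies between 2.21 and 2.76, Ldhb between -1.79 and -1.63, and Hk2 has no value at 3 h.

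At 30 min after ligation none of the members was called. In CCD none of 9 tested passed, where 0.0264% of all genes tested did (3 genes, with 1789 at an unadjusted p under 0.05). In cTAL none of 10 passed, where 0.00910% of all genes did (1 gene, with 250 at an unadjusted p under 0.05). The median change of all genes in CCD was -0.31, and 8 of the 9 members had a value below 0 there. Pfkl was -0.53 (SE 0.21, adjusted p = 0.292), Egln3 -0.81 (SE 0.43, adjusted p = 0.351) and Vegfa -0.45 (SE 0.20, adjusted p = 0.32). For Vegfa the obstructed CCD values of 12.2, 8.64, 11.8 and 13.8 TPM all lay below the sham values given above. With the first CCD libraries alone Vegfa was called (-0.60, adjusted p = 0.0265), and its value was -0.10 (adjusted p = 0.756) after rescaling and -0.01 (adjusted p = 0.99) after quantile normalization. Of the others, Aldoa had -0.27 in CCD (95% interval -0.63 to 0.09) and Bnip3 -0.02 (95% interval -0.44 to 0.39). In cTAL the values ran from -0.40 for Pfkl (95% interval -0.86 to 0.06) to 0.18 for Vegfa (95% interval -0.29 to 0.64).

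At 3 h Bnip3 rose in both segments. In CCD it stood at 322, 339.6, 363 and 376 TPM in the sham replicates. The obstructed replicates stood at 474, 469, 517 and 704 TPM, all above sham. The change was 0.60 (SE 0.13, 1.52-fold, adjusted p = 0.0203). In cTAL the sham values were 244, 299.8, 319 and 396 TPM. The obstructed values were 575, 848, 1148 and 846 TPM, again with no overlap, and the change was 1.42 (SE 0.21, 2.67-fold, adjusted p = 0.00424). Number 3 was the highest and number 1 the lowest of the obstructed cTAL replicates. The cTAL call held under every alternative tried for it. Leaving out libraries rich in proximal tubule markers was not among these, and every obstructed cTAL replicate held over 1000 TPM of those markers. The CCD call was lost under 4 of 17: without sham number 1 (0.56, adjusted p = 0.0545), without sham number 2 (0.59, adjusted p = 0.0609), with the second libraries alone (0.64, adjusted p = 0.0705) and without the libraries rich in proximal tubule markers (0.44, adjusted p = 0.0556), which leaves 2 obstructed replicates. Bnip3 was the only member called higher, 1 of 9 tested in each segment, where 5% of all genes in CCD and 4.06% in cTAL were called higher.

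Ldha was the only member called lower, and only in CCD, where 8.04% of all genes were called lower. The sham replicates stood at 3266, 3325, 3028 and 2537 TPM. The obstructed replicates stood at 2432, 2346, 2326 and 1918 TPM, each below the lowest sham value. The change was -0.44 (SE 0.12, 1.36-fold, adjusted p = 0.0376), where the median change of all genes in CCD was -0.14. This call was not firm. It was lost under 10 of 17 alternatives, at values from -0.62 to -0.26. After rescaling it was -0.29 (adjusted p = 0.109) and without the filter on low values -0.44 (adjusted p = 0.08). It was -0.26 (adjusted p = 0.156) with the first CCD libraries alone and -0.30 (adjusted p = 0.178) without the libraries rich in proximal tubule markers. Leaving out sham number 1 (-0.40, adjusted p = 0.0947), 2 (-0.40, adjusted p = 0.106) or 3 (-0.44, adjusted p = 0.0807), or UUO number 2 (-0.46, adjusted p = 0.0742) or 4 (-0.35, adjusted p = 0.073), ended it too. The lowest library was the Umod-rich second library of UUO 4, with 1421 TPM against 2415 TPM in the first, and without the Umod-rich libraries the change was -0.37 (adjusted p = 0.0376). In cTAL Ldha stood at 493, 496, 549 and 425 TPM in sham and 549, 458, 378 and 554 TPM in UUO, a change of -0.03 (95% interval -0.34 to 0.29), and none of the 9 members tested there was called lower, against 7.64% of all genes. Over all genes, rescaling changed the split at 3 h from 526 higher and 847 lower to 700 and 455 in CCD, and from 407 and 766 to 492 and 414 in cTAL.

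The other members were not called at 3 h. Ldhb in cTAL stood at 8897, 9438, 8138 and 9189 TPM in sham. The obstructed values were 6277, 7422, 8824 and 6992 TPM, overlapping sham only through number 3, and the change was -0.28 (SE 0.11, adjusted p = 0.114). Without UUO number 3 it was called (-0.37, adjusted p = 0.041). In CCD Ldhb had -0.13 (95% interval -0.53 to 0.27). Hk1 had -0.49 in CCD (SE 0.19, adjusted p = 0.114) and -0.44 in cTAL (SE 0.30, adjusted p = 0.376). Pfkl had -0.40 in CCD (SE 0.22, adjusted p = 0.253) and -0.48 in cTAL (SE 0.33, adjusted p = 0.376). Both thus had values below the median of all genes in each segment, without passing the test. Pgk1 had -0.06 in CCD (95% interval -0.26 to 0.15) and -0.22 in cTAL (SE 0.10, adjusted p = 0.168). Aldoa in CCD stood at 5415, 5677, 5807 and 5883 TPM in sham and 3457, 4559, 6099 and 4390.3 TPM in UUO. Its change was -0.33 (SE 0.15, adjusted p = 0.156). UUO number 3 was the highest of all 8 values, and without it Aldoa was called (-0.48, adjusted p = 0.0197), whereas without the libraries rich in proximal tubule markers, which leaves numbers 2 and 3, the value was 0.01.

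The remaining hypoxia response genes did not pass either. Vegfa stood at 12.9 ± 3.2 TPM in sham and 13 ± 1.41 TPM in UUO in CCD at 3 h (mean ± SD, n = 4), a change of 0.02 (95% interval -0.39 to 0.44). In cTAL it stood at 9.37, 10.3, 9.13 and 5.77 TPM in sham and 8.73, 12.6, 14.8 and 10.3 TPM in UUO. The cTAL change was 0.39 (95% interval -0.20 to 0.98). Egln3 in cTAL stood at 44.8 ± 3.46 TPM in sham, and the obstructed values were 60.5, 73.8, 64.2 and 32.5 TPM. Of these, 3 lay above the sham range and number 4 below it, so the change was 0.30 (95% interval -0.23 to 0.83). In CCD the Egln3 change was 0.22 (95% interval -0.50 to 0.95), and without the Umod-rich libraries 0.41 (adjusted p = 0.44). Among the members known as HIF targets (Bnip3, Vegfa, Egln3, Pgk1, Aldoa and Ldha), only Bnip3 was called higher at 3 h, in both segments. A missing call does not show that a gene stayed level, and whether these members moved together was not tested.

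**Figure D3:**
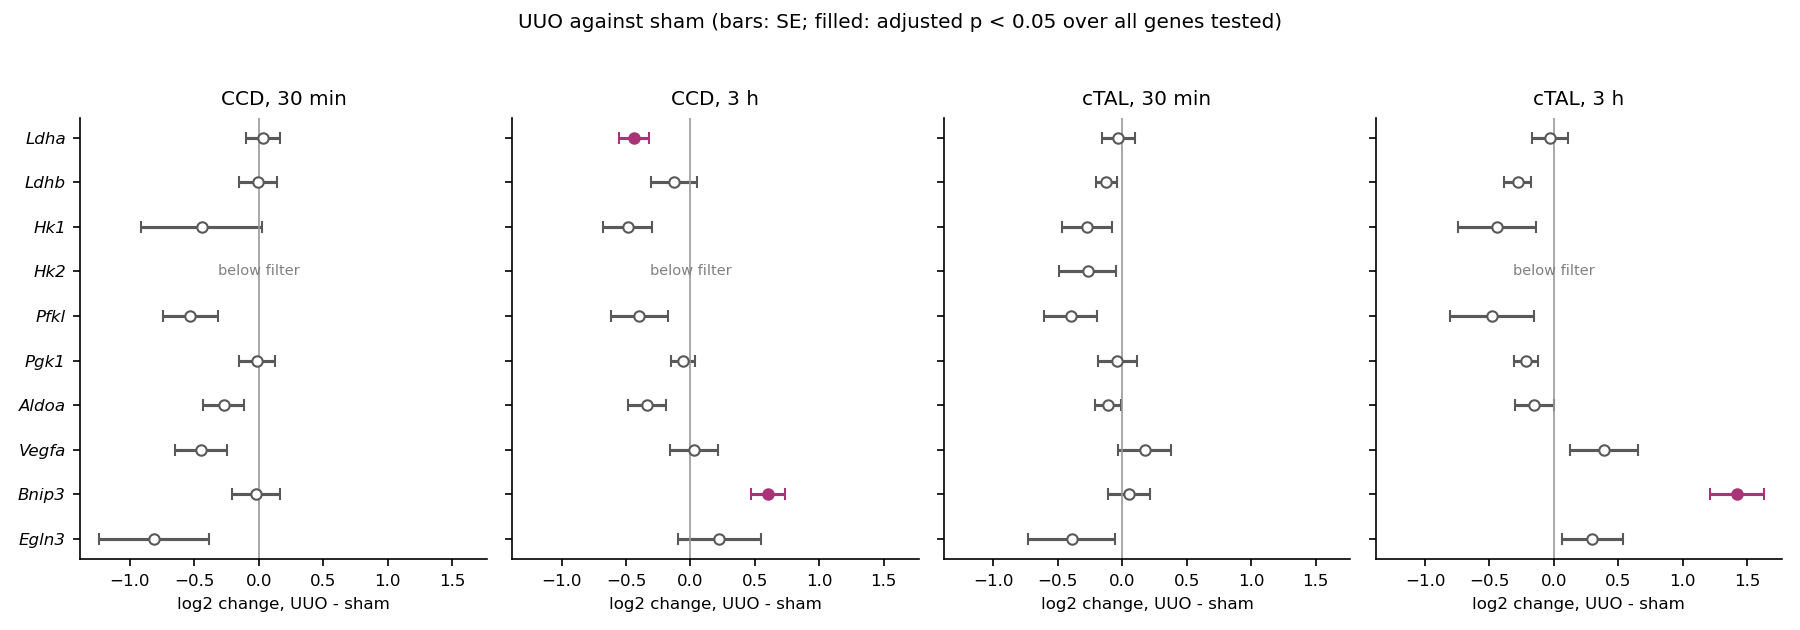
Change of each member after obstruction, in log2 units (UUO minus sham), by segment and time. Bars give the SE, filled circles have an adjusted p under 0.05 over all genes tested, and Hk2 is missing where it lay below the filter. Bnip3 stands at 0.60 in CCD and 1.42 in cTAL at 3 h, and Ldha at -0.44 in CCD at 3 h.

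No shift of the balance of Ldha and Ldhb after obstruction passed its test. The Ldha to Ldhb log2 ratio moved by -0.31 in CCD at 3 h, where UUO number 4 had a TPM ratio of 0.514 and the other 3 between 0.983 and 1.26. The second, Umod-rich library of that number held 5367 TPM of Ldhb and 1421 TPM of Ldha, and its first library 2098 and 2415 TPM. In sham CCD at 3 h the Umod-rich first libraries of numbers 1 and 3 held 3715 and 3665 TPM of Ldhb, and the other 6 libraries 1972 to 2386 TPM. The part of thick ascending limb transcripts in the CCD ratio was not tested. In cTAL the log2 ratio moved by 0.25 at 3 h. The two-sided exact permutation tests of this ratio in 4 comparisons gave unadjusted p from 0.343 to 0.771, where 4 against 4 allows 0.0286, and adjusted p from 0.777 to 0.882 over 8 tests, of which the other 4 concerned a hexokinase ratio that is not read because Hk2 lay near 0.

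Whether the response differed between segments or times was tested directly. The value for the Bnip3 response at 3 h was smaller in CCD than in cTAL, with a limma difference of changes of -0.81 (SE 0.20, 95% interval -1.27 to -0.36, adjusted p = 0.0878), which did not pass. None of 9 members tested passed at either time, where 0.253% of all genes did at 30 min and 1.25% at 3 h (26 genes and 118 genes, with 1511 and 1378 at an unadjusted p under 0.05). For Ldha the difference of changes at 3 h was -0.41 (95% interval -0.79 to -0.03, adjusted p = 0.309), so a difference in the fall between segments was not shown. Between times, the Bnip3 response in cTAL was larger at 3 h than at 30 min by 1.36 (SE 0.28, adjusted p = 0.0179), 1 of 9 members, where 2.81% of all genes passed. The cTAL values behind it at 30 min were 238, 311, 318 and 241 TPM in sham and 306, 219, 344 and 286 TPM in UUO, which overlapped. In CCD the difference between times for Bnip3 was 0.62 (SE 0.23, adjusted p = 0.198) and for Ldha -0.47 (SE 0.18, adjusted p = 0.207), and none of 9 members passed, where 1.49% of all genes did (152 genes, with 1691 at an unadjusted p under 0.05). In CCD 124 of these genes had a larger change at 3 h and 28 a smaller one, or 127 and 64 after rescaling, and the median difference of all genes was 0.18.

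Around these members, 8 lists of other genes of glucose handling, glycolysis, oxygen sensing, HIF targets, vascular growth factors and mitophagy were read, with 133 genes listed and 128 found. None of them was called at 30 min in either segment. At 3 h the other HIF targets went both ways. In CCD 3 of 29 tested were higher and 3 lower, where 5% and 8.04% of all genes were, with a median of -0.02 beside -0.14 for all genes. In cTAL 6 of 28 were higher and 2 lower, where 4.06% and 7.64% of all genes were, with a median of 0.26 beside -0.12. These counts include Angptl4, Ak4 and Edn1, which reached 1 TPM in fewer than 3 of the 4 sham replicates of the segment where they were called and so were tested only through the obstructed arm, where they were high. Genes of this kind are given here by their levels, with no test. Angptl4, which encodes an inhibitor of lipoprotein lipase, ranged over 0.075 to 0.305 TPM in sham CCD and 8.82 to 202 TPM in UUO. In cTAL it ranged over 0.07 to 1.25 TPM in sham and 14.9 to 409 TPM in UUO. Ak4, a mitochondrial adenylate kinase, ranged in cTAL over 0 to 1.74 TPM in sham and 2.49 to 6.88 TPM in UUO, and Edn1 (endothelin) over 0 to 2.57 TPM and 4.89 to 17.5 TPM. The arms did not overlap in any of these 4 comparisons, which is a description only. These genes were named for their large changes, and the share of all genes without overlap is not given here. Hmox1, heme oxygenase, rose by 1.64 in CCD (adjusted p = 0.0246) and 1.86 in cTAL (adjusted p = 0.0244), a call kept under 9 of 17 and 7 of 13 alternatives. Plin2, which coats lipid droplets, rose by 1.00 in CCD (adjusted p = 0.00845), and Ddit4, an mTORC1 inhibitor, fell by 1.31 there (adjusted p = 0.00985).

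Of 15 other genes of the middle of glycolysis tested in CCD, 1 was higher and 3 lower, beside 5% and 8.04% of all genes, and their median was -0.19 beside -0.14 for all genes. The higher one, Pklr, was tested only through the obstructed arm, where it was high. Its levels are given below with no test. Pfkm, the muscle-type phosphofructokinase subunit, fell by 0.71 (adjusted p = 0.0147), Gpi, glucose phosphate isomerase, by 0.45 (adjusted p = 0.0237), and Pkm, pyruvate kinase, by 0.42 (adjusted p = 0.0306). The Pfkm call was kept under 16 of 17 alternatives, that of Gpi under 8 and that of Pkm under 7. Among those that ended the last 2 was rescaling, where Gpi had -0.30 (adjusted p = 0.077) and Pkm -0.27 (adjusted p = 0.092). Slc2a1, the GLUT1 glucose transporter, fell by 0.80 in CCD (adjusted p = 0.0193), 1 of 3 genes of glucose uptake tested, from 86.6 ± 9.63 TPM in sham to 50.6 ± 13.4 TPM in UUO (mean ± SD, n = 4). Pdk2, a pyruvate dehydrogenase kinase, fell by 0.58 (adjusted p = 0.035), 1 of 18 genes of the lactate and pyruvate branch tested, and its call held under 4 of 17 alternatives. In cTAL 1 of 15 middle glycolysis genes was lower, where 7.64% of all genes were. Pfkm fell there by 0.74 (adjusted p = 0.0432), a call kept under 3 of 13 alternatives. Slc16a1, the lactate carrier MCT1, rose in cTAL by 1.58 (adjusted p = 0.0221), a call kept under 8 of 13 alternatives. Slc16a3, the carrier MCT4, was the other of 2 of 18 genes of that branch called higher there, but reached 1 TPM in 2 of 4 sham replicates and ranged over 0 to 1.36 TPM in sham and 1.72 to 4.06 TPM in UUO.

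Of 13 oxygen sensing genes tested in CCD, 3 were lower and none higher, where 8.04% and 5% of all genes were, with a median of -0.05 beside -0.14 for all genes. In cTAL none of 13 was called, and the difference between segments was not tested for the list. Hif1a, the oxygen-regulated HIF subunit, fell from 32.7 ± 7.70 TPM in sham to 16.8 ± 5.22 TPM in UUO (mean ± SD, n = 4), by 0.93 (adjusted p = 0.0346), a call kept under 9 of 17 alternatives. Cited2, which competes with HIF for its coactivator, fell by 1.05 (adjusted p = 0.0131). Vhl, which tags hydroxylated HIF for breakdown, fell by 0.61 (adjusted p = 0.0434), a call kept under 3 of 17 alternatives. Of 12 genes of the Bnip3 family and mitophagy, Optn rose in CCD by 0.90 (adjusted p = 0.0173) and Pink1 rose in cTAL by 0.81 (adjusted p = 0.0328), each the only one called in its segment. The first call was kept under 14 of 17 alternatives and the second under 5 of 13. None of 3 genes of the vascular growth factor list was called in either segment.

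**Figure D4:**
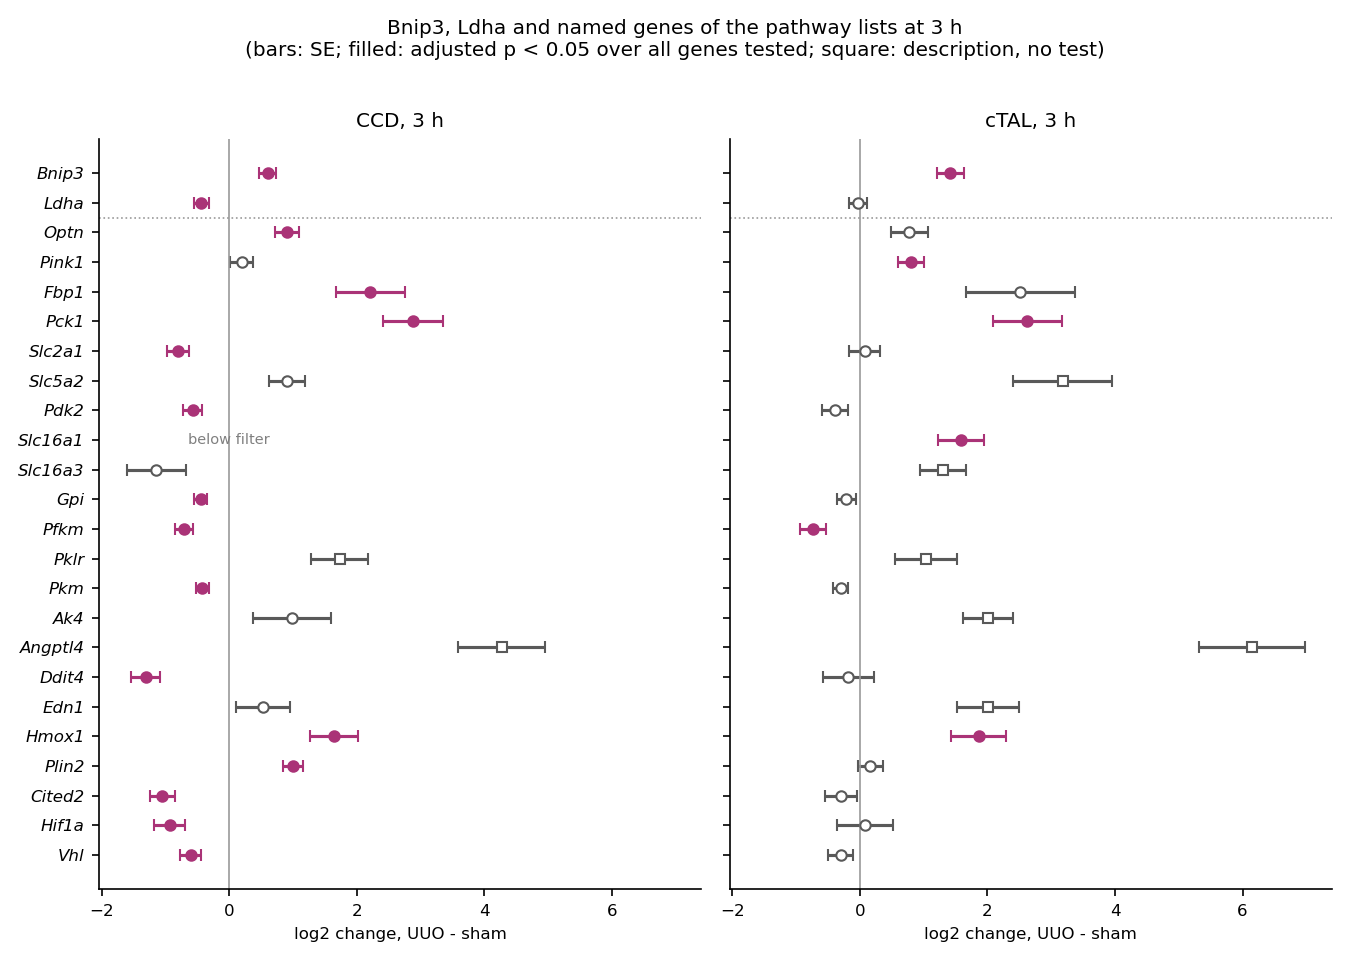
Change at 3 h (UUO minus sham, log2) of Bnip3, Ldha and genes of the pathway lists described at that time, in CCD and cTAL. Bars give the SE and filled circles have an adjusted p under 0.05 over all genes tested. Squares are genes that reached 1 TPM in fewer than 3 replicates of an arm, whose values are a description. Bnip3 stands at 0.60 in CCD and 1.42 in cTAL, and Slc2a1, Hif1a and Pfkm lie left of 0 in CCD.

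Genes of proximal tubule metabolism also moved at 3 h. Pck1, a rate-limiting enzyme of gluconeogenesis, rose by 2.89 in CCD (adjusted p = 0.0088) and 2.63 in cTAL (adjusted p = 0.017). Fbp1, another enzyme of gluconeogenesis, rose by 2.21 in CCD (adjusted p = 0.0292). The liver-type pyruvate kinase Pklr ranged in CCD over 0.575 to 3.20 TPM in sham and 3.71 to 19.3 TPM in UUO, and Slc5a2, the glucose carrier SGLT2, in cTAL over 0 to 2 TPM in sham and 1.90 to 37.9 TPM in UUO; neither reached 1 TPM in more than 2 sham replicates there. Pck1, Fbp1 and Slc5a2 also stand on the list of proximal tubule markers. Of 8 tested, 4 were called higher in CCD and 5 in cTAL, where 5% and 4.06% of all genes were. The cTAL count includes Slc5a2, which was tested only through the obstructed arm. Summed over the proximal tubule list, sham CCD replicates held 152 to 702 TPM and obstructed ones 482 to 2919 TPM. The cTAL replicates held 512 to 1153 TPM and 1433 to 3155 TPM. Without the libraries rich in these markers, Pck1 stood at 1.21 (adjusted p = 0.125) and Fbp1 at 0.57 (adjusted p = 0.575) in CCD. Red cell markers rose as well in CCD, 5 of 5 gene identifiers tested, beside 5% of all genes, from 25.4 to 1189 TPM summed in sham to 1505 to 7975 TPM in UUO. In cTAL their sums ranged over 35.4 to 3181 TPM in sham and 1857 to 11432 TPM in UUO, which overlapped. Principal cell markers fell in CCD, 5 of 8 tested, beside 8.04% of all genes, from 15907 to 18653 TPM summed to 5503 to 10052 TPM. Markers of other cells moved too, where 5% of all genes were called higher in CCD and 7.64% lower in cTAL. Macrophage markers were higher in CCD (4 of 7, from 92.6 to 232 TPM summed in sham and 172 to 274 TPM in UUO) and lower in cTAL (4 of 7, from 749 to 1408 TPM and 133 to 454 TPM). Endothelial markers were lower in cTAL (4 of 6, from 75.6 to 392 TPM and 59.8 to 96 TPM), and 1 of 3 fibroblast and smooth muscle markers was higher in CCD (5.68 to 16.9 TPM and 18.2 to 78.5 TPM). In such samples, fewer cells of a type and less RNA per cell cannot be told apart. The part of these markers in the changes of Bnip3, Ldha and the listed genes was not tested beyond the libraries left out above.

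**Figure D5:**
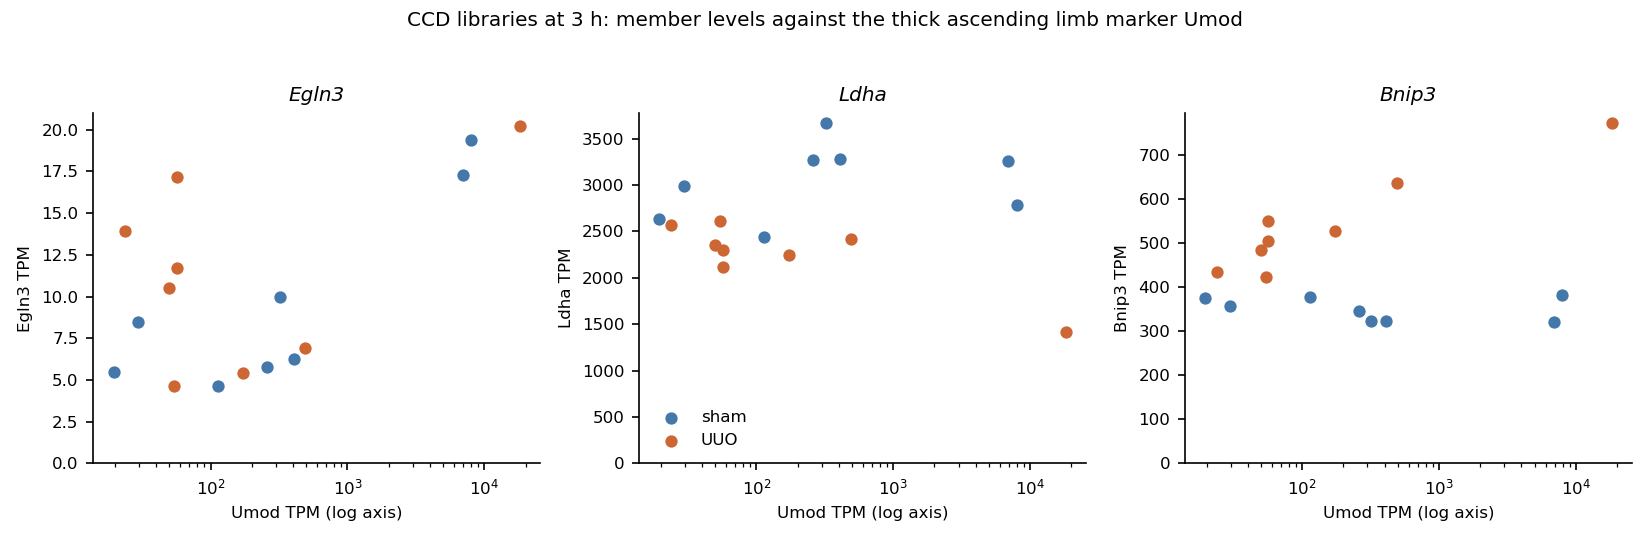
TPM of Egln3, Ldha and Bnip3 in the 16 CCD libraries at 3 h against TPM of Umod on a log axis, blue for sham and orange for UUO. The 3 libraries to the right, above 5000 TPM of Umod, hold 17.3 to 20.2 TPM of Egln3, and the UUO library among them holds the lowest Ldha value, 1421 TPM.

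Partners of the members also differed between the segments of sham kidneys at 30 min. Slc2a4, the GLUT4 glucose transporter, averaged 0.828 ± 0.252 TPM in sham CCD, against 64.1 ± 8.05 TPM in the cTAL (mean ± SD, n = 4). Among the lactate carriers, Slc16a3 ranged over 18.9 to 50.3 TPM in CCD and 0.81 to 1.08 TPM in cTAL, and Slc16a1 over 0.2 to 1.14 TPM in CCD and 8.1 to 21.9 TPM in cTAL. These 3 genes reached 1 TPM in at most 2 replicates of the segment where they were low, so their levels are given with no test. Hif1a was higher in CCD by 1.92 (SE 0.11, adjusted p = 1.89e-05), at 96 TPM on average against 24.5 TPM in cTAL, and the HIF partner Arnt2 lower, at -4.10 (SE 0.16, adjusted p = 3.99e-06). Ldhc, the C subunit of lactate dehydrogenase, stood at 22.6 ± 9.97 TPM in CCD (mean ± SD, n = 4) and was listed at 0 in all 4 cTAL replicates. How far reads of Ldha enter the Ldhc values cannot be told from TPM. Of the 28 other HIF targets tested, 12 were higher and 4 lower in CCD, shares near the 41.7% and 13.2% of all genes, with a median of 0.20 beside 0.30 for all genes.

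Genes whose pattern came closest were found from the 8 group means of log2(TPM + 1), centred within each time, among 9085 genes, by the root mean square difference. Those closest to Ldha were RGD1562690 (0.04), AC098459.1 (0.05) and Srd5a1 (0.06). RGD1562690 held 253 ± 28.8 TPM in sham CCD and 39.5 ± 8.09 TPM in sham cTAL at 30 min, and its relation to Ldha is not given in the sources used here. Closest to Ldhb were Cldn19 (0.08), Rps4y2 (0.12) and Spats2l (0.13), of which Cldn19 is a tight junction protein of the thick ascending limb and one of its markers here. Closest to Vegfa were Cep83 (0.05), Tp53bp2 (0.06) and Ip6k2 (0.07). Closest to Egln3, though less close, were Hspb6 (0.25) and Rsph1 (0.27).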

How the data were processed

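RNA of microdissected CCD and cTAL was read as TPM. The authors deposited TPM per gene and library, made with STAR 2.7.3 and RSEM 1.3.3 on Rnor_6.0, per the submitters' processing notes. SMARTer V4 cDNA was amplified for 15 PCR cycles, per the labels' protocols, and strand is not said to be kept. No counts were used, so depth is unknown and the number of replicates limits the precision. Genes were carried between tables by identifier, since 5174 had different names. The members and gene lists were chosen with earlier results of these data known.

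TPM of the 2 CCD libraries per number were averaged, on the log2(TPM + 1) scale for tests. Genes reaching 1 TPM in 4 or more of 8 replicates were fitted with limma 3.58.1 (R 4.3.3) with a variance trend, and p-values were adjusted by Benjamini-Hochberg over all genes tested. UUO and sham were compared without a block. Segments were compared within same-numbered pairs. On the pair differences the variance trend was placed on each gene's mean level, because the trend on the mean difference lost known changes when tested on simulated data, and the latter is an alternative. The ratio of Ldha to Ldhb was tested with two-sided exact permutation tests. Across arms, the deviations of same-numbered CCD replicates at 30 min had correlations of 0.115 to 0.229. A cTAL pair at 30 min reached 0.179, so whether numbers pair the arms was not settled. The CCD comparison at 30 min was fitted without the block, and the replicate block changed no member's call in it.

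All 10 members were named. From each list, up to 4 called genes with the largest change were named in each comparison, of which the text gives those it describes (without a test where fewer than 3 replicates of a group reached 1 TPM), and up to 3 most alike genes were named for 4 members. Some genes chosen by this rule are not reported here. Alternatives were another pseudocount, no filter, median-of-ratios rescaling, quantile normalization, the replicate block, leaving out each replicate and each CCD library alone. Those without the library with few genes, rich in Umod or rich in proximal tubule markers, and that of the variance trend, were chosen after seeing the data. A value that was not called and changed sign by less than its SE (ratios: by less than 0.5 of the combined SD) was counted as having kept its direction.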

Additional observations from a re-analysis of the deposited data

Results flagged for a closer look

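In 8 of 80 groups of 4 replicates, 1 replicate stood apart from the other 3 beyond Dixon's 95% critical value, where chance gives about 1 in 20. Ldha was lowest in UUO number 4 of CCD at 3 h, at 1918 TPM, the number with the Umod-rich library. Ldhb was lowest in sham number 3 of CCD at 30 min, at 937 TPM, and highest in UUO number 3 of cTAL at 30 min, at 4422 TPM. Egln3 was lowest in UUO number 1 of CCD at 3 h, at 5.04 TPM. The other 4 concerned Hk2, at levels under 1 TPM: 0.085 TPM in sham number 4 of CCD at 30 min, 0.16 TPM in sham number 1 and 0.715 TPM in UUO number 4 of CCD at 3 h, and 0.30 TPM in sham number 1 of cTAL at 3 h. The Bnip3 response in cTAL differed between times by 1.36 on the log2 scale in the test of that difference.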

How the results depend on the processing

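Depth is unknown, and no member passed the adjusted threshold between arms at 30 min. Bnip3 in cTAL at 3 h was called under each of the 13 alternatives tried for it, which did not include leaving out libraries rich in proximal tubule markers. Outside the replicates left out, 1645 values kept their direction and side of the threshold, 188 lost and 9 gained a call, 26 counts moved and 30 values changed sign; with 1 replicate left out these were 1559, 140, 4, 47 and 2. The cause of these changes was not tested.

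Counts of members called moved as follows. In CCD at 30 min 1 was called with the first libraries alone. In CCD at 3 h (2 called) it was 1 without the filter, after rescaling and with the first libraries alone, and 0 with the second libraries alone and without the libraries rich in proximal tubule markers; leaving out 1 replicate gave 0 to 3. In cTAL at 3 h (1 called) leaving out 1 replicate gave 1 to 2. Between segments the counts include Ldha and, at 30 min, Hk2. Obstructed kidneys at 3 h (5 called) gave 3 with the second libraries alone and with the variance trend on the mean difference. Leaving out 1 replicate gave 4 to 5 there, 4 to 5 in sham kidneys at 3 h and 4 to 6 in obstructed kidneys at 30 min.

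Counts of all genes called moved more. CCD at 30 min (3) gave 878 and 1 with the first and second libraries alone, and 2 to 3 with 1 replicate left out. CCD at 3 h (1373) gave 852 without the filter, 770 with the replicate block, 631 and 456 with the first and second libraries, 757 without the libraries rich in proximal tubule markers, and 460.0 to 1638 with 1 replicate left out. For cTAL at 3 h (1173) the counts were 760.0 without the filter, 580.0 with the replicate block and 471 to 1036 with 1 replicate left out. Between segments of obstructed kidneys at 30 min (2830.0) they were 4676 and 1260.0 with the first and second libraries, 4619 without the library with few genes and 1655 to 3053 with 1 replicate left out. In obstructed kidneys at 3 h (2772) they were 1430.0 with the second libraries and 1572 to 2213, and in sham kidneys at 3 h (4015) 2676 to 3555. The segment difference in response at 30 min (26) gave 0 after rescaling, 94 with the other variance trend, 159 without the library with few genes and 0 to 628; at 3 h (118) it gave 69 with the other trend and 21 to 101. The time difference in CCD (152) gave 279 without the library with few genes and 26 to 199, and in cTAL (271) 146 to 323. The replicate block changed no member's call between arms, but at 3 h it ended those of Optn, Pdk2, Gpi and Vhl in CCD and of Pink1, Pck1, Slc16a1, Pfkm and Hmox1 in cTAL, and without pairing by number the segment calls of Hk1 in sham kidneys (0.44, adjusted p = 0.127) and Aldoa in obstructed kidneys (0.38, adjusted p = 0.185) at 3 h were lost. Outside CCD at 30 min the correlations of same-numbered replicates across arms ran from -0.233 to 0.179 over the other 3 comparisons.

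Signs turned for values that were near 0 or not called. After rescaling, CCD at 30 min gave 0.36 for Ldhb, 0.36 for Pgk1, 0.10 for Aldoa and 0.35 for Bnip3, CCD at 3 h gave 0.093 for Pgk1, and cTAL at 3 h gave 0.12 for Ldha. Segment differences after rescaling were -0.22 for Pfkl, -0.20 for Pgk1 and -0.31 for Bnip3 in sham at 30 min, -0.15 for Bnip3 in sham at 3 h, and -0.18 for Pgk1 and -0.16 for Vegfa in UUO at 3 h. After quantile normalization they were -0.35 for Pfkl, -0.13 for Pgk1 and -0.30 for Bnip3 in sham at 30 min, -0.077 for Pfkl and -0.011 for Bnip3 in sham at 3 h, -0.11 for Pgk1 in UUO at 30 min, and -0.014 for Pgk1 and -0.23 for Vegfa in UUO at 3 h. With the first libraries Hk1 in CCD at 30 min was 0.46, Egln3 in CCD at 3 h -0.13 and the Pfkl segment difference in UUO at 30 min 0.11; with the second, Ldha in CCD at 30 min was -0.11 and Ldhb in CCD at 3 h 0.18. Without the library with few genes the segment differences in UUO at 30 min were 0.10 for Pfkl and 0.080 for Bnip3, and without the libraries rich in proximal tubule markers Aldoa in CCD at 3 h was 0.0097. The segment difference in response at 30 min after rescaling was 0.12 for Aldoa and 0.21 for Bnip3. With 1 replicate left out, Hk1 in CCD at 30 min ran from -0.69 (without UUO number 3) to 0.060 (without UUO number 2), and that difference for Hk1 from -0.37 to 0.32 without the same numbers.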
